A study of Mus musculus with 125 samples.

Results

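Kidney endothelial nuclei were compared with nuclei of the whole kidney by their open chromatin, in adult and in P6 mice. The comparison rests on the 9 kidney libraries among the 66 ATAC-seq libraries of the series: 2 endothelial and 2 input libraries from adult kidney, and 2 endothelial and 3 input libraries from P6 kidney, chosen by their sample titles. ATAC-seq inserts sequencing adapters into accessible DNA, so that a peak of inserted tags marks open chromatin. Within each age the same number of best-scoring peaks was taken from every library, peaks were merged into regions, and a region was called endothelial-only when it held a peak in both endothelial libraries and in no input library. It was called input-only when it held a peak in at least 2 input libraries and in no endothelial library. This gave 7574 endothelial-only and 6665 input-only regions of 47163 in adult kidney, or 16.1% and 14.1% of all regions. At P6 it gave 11669 and 14640 regions of 82000, or 14.2% and 17.9%.

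All mice received tamoxifen at 0.015 mg/kg bodyweight, which switched on a GFP reporter in vessels. Adult mice were 2 months old and were treated 7 days before the kidneys were taken. Pups of the P6 group were treated at P1 and P3, and the protocol in the labels places their collection at P7, although the samples are labelled P6. Input means nuclei of the whole tissue, which still contains its endothelial cells. The labels give the sides as endothelial and input. The driver of the reporter, the mouse strain and whether a library came from 1 animal or a pool are not given in the sources used here, so tests measure the spread between libraries, which may be technical.

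The kidney filters blood in glomeruli, tufts of fenestrated capillaries wrapped by podocytes, and recovers water and solutes in a long epithelial tubule made up of the proximal tubule, the loop of Henle, the distal tubule and the collecting duct. Proximal tubule cells form the largest part of the adult organ. Endothelial identity is known to be maintained by ETS, SOX and GATA transcription factors, and tubular identity by HNF1, HNF4 and PAX factors. At the end of the first postnatal week the mouse kidney has just stopped or is about to stop forming nephrons, and its tubules are still maturing.

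Some of the regions lay over the starts of list genes. The following windows are the 250 bases before the start of genes of the lists described below, on GRCm38.p6 (the mm10 assembly), from RefSeq, and each overlaps a region of the stated side at both ages. Of the list genes 4 had such a window on the endothelial-only side and 9 on the input-only side. The ETS motif was found in 2 of the 4 windows and the HNF1 motif in 4 of the 9, and only windows with a match are shown. Those of Tek and Nrp1, and of Cubn, Ptger3, Slc27a2, Keg1 and Pax2, had none. Capitals in the first pair mark the ETS motif GGAAGT or its reverse complement, and in the other 4 the HNF1 motif GTTAAT or its reverse complement. A match is a match of letters and not a shown binding site.
Flt1 (endothelial-only, chr5:147726012-147726261, minus strand): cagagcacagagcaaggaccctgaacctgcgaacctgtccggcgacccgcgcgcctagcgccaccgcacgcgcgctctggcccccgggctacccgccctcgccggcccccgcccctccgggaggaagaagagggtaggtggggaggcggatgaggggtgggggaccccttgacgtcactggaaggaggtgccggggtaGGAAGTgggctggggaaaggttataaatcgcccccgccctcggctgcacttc
Cd36 (endothelial-only, chr5:17835897-17836146, minus strand): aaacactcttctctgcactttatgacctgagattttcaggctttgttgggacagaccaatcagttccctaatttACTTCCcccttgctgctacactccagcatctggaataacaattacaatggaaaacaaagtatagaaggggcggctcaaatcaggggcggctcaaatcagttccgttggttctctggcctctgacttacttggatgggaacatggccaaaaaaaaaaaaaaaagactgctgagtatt
Hnf4a (input-only, chr2:163546905-163547154, plus strand): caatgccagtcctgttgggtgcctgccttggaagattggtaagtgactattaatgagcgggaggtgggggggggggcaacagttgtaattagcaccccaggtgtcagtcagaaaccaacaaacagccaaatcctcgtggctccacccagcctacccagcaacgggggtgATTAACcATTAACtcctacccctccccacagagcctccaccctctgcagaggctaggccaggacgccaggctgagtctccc
Slc34a1 (input-only, chr13:55399398-55399647, plus strand): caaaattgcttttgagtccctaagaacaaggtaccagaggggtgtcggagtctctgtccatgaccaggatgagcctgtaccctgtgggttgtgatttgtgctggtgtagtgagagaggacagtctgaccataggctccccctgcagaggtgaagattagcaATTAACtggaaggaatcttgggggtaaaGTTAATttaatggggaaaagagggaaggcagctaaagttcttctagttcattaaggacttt
Miox (input-only, chr15:89334223-89334472, plus strand): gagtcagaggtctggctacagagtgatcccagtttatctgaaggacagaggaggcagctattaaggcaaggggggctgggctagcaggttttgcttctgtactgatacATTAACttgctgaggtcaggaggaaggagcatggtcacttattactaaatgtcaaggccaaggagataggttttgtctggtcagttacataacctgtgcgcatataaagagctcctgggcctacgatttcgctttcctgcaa
Umod (input-only, chr7:119479263-119479512, minus strand): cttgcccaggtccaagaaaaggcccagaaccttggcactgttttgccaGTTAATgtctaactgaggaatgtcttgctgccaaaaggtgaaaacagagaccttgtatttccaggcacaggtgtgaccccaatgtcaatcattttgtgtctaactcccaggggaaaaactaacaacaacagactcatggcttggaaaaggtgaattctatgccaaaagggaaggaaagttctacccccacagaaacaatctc

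Flt1 encodes a VEGF receptor of endothelium. Over its start the authors' −log10 q-value, which measures how far a peak stands above the background of its own library, was 8.56 and 10.5 in the adult endothelial libraries. One adult input library had no peak there, and the other listed a peak of 2.04, which ranks below the 26085 peaks used. At P6 the values were 16.8 and 10.0 in the endothelial libraries and 4.00, 2.12 and 2.35 in the inputs, all 3 of which fall below the 43882 peaks used.

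Cd36 encodes a fatty acid transporter of capillary endothelium. Its start scored 5.09 and 6.97 in the adult endothelial libraries, against 1.41 in one input and no peak in the other. At P6 it scored 7.82 and 6.22 in the endothelial libraries, and 3.50 in input 1 with no peak in inputs 2 and 3. Around the gene as a whole 5 regions were endothelial-only at each age, and 1 in adult and 3 at P6 were input-only.

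The reverse held over tubular genes. Hnf4a encodes a transcription factor of the proximal tubule, and its start had no peak in any endothelial library of either age, against 9.50 and 10.3 in the adult inputs and 18.1, 8.34 and 9.02 in the P6 inputs. Slc34a1 encodes the phosphate transporter of the proximal tubule. Its start scored 2.66 and 13.5 in the adult inputs and 5.71, 10.4 and 8.60 in the P6 inputs, and weak peaks of 1.64 and 1.53 were listed in adult endothelial library 2 and P6 endothelial library 1. Miox, for an oxygenase of inositol breakdown in the same cells, had no endothelial peak at its start, against 4.40 and 10.8 in the adult inputs and 6.37, 7.66 and 6.62 in the P6 inputs. Umod encodes uromodulin, the major urinary protein made in the thick ascending limb, and its start scored 3.78 and 15.3 in the adult inputs and 9.89, 4.32 and 7.03 in the P6 inputs, with a single weaker endothelial peak of 2.26 in adult library 2.

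Such values show what a side-only call means. Input libraries contain endothelial nuclei too, and the calls concern the best peaks of each library. Of the endothelial-only regions, 4036 (53.3%) in adult and 6800 (58.3%) at P6 had some weaker peak in the full list of an input library. Of the input-only regions, 1100 (16.5%) and 2619 (17.9%) had one in the full list of an endothelial library. The lists differed in length: the shortest was that of endothelial library 1 in adult and of endothelial library 2 at P6, which set the number of peaks used, while adult input 2 deposited 65196 peaks and P6 input 1 deposited 115914. The score of the last peak used was accordingly 1.03 and 3.60 in the adult endothelial libraries and 2.61 and 6.76 in the adult inputs. It was 4.01 and 1.01 in the P6 endothelial libraries and 6.72, 2.50 and 2.59 in the P6 inputs. When absence was judged in the full lists, 3538 adult and 4869 P6 regions stayed endothelial-only. Just outside the rule lay 7104 adult and 7961 P6 regions with a peak in 1 endothelial library and no input, and 2135 and 2996 with a peak in both endothelial libraries and 1 input. The counts changed when single libraries were left out. Without adult input 1 or 2, when a peak in the remaining one sufficed, input-only regions came to 11555 and 11393 in place of 6665. Without P6 input 2 or 3 they came to 7729 and 7611 in place of 14640. Adult endothelial-only regions came to 8626 to 11279 in place of 7574 without single adult libraries. Here and below, where leaving one out left 1 library on a side, a peak in that 1 sufficed. A library left out also no longer had to lack a peak, and at P6 without an input both remaining inputs had to hold one. Counts without single libraries therefore do not follow the main rule. The libraries held 24.1 to 40.5 M (mega) tags after duplicates were removed.

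Libraries of the same side shared more regions than libraries of opposite sides. The Jaccard index, the share of regions with a peak in either library that have one in both, was 0.675 for the adult endothelial pair and 0.600 for the adult input pair, against 0.343 to 0.355 for the 4 pairs across sides. At P6 it was 0.718 for the endothelial pair and 0.525 to 0.699 for the 3 input pairs, against 0.365 to 0.392 for the 6 pairs across sides. No pair within a side fell to the level of a pair across sides. The mean index within a side exceeded that between sides by 0.289 in adult and 0.240 at P6, and the mean of both differences, 0.265, was the largest of the 30 ways to split the libraries within ages (one-sided exact permutation p = 0.0333, the smallest this design can give). P6 input 1 stood apart from the other 2 inputs of its age, with an index of 0.525 to input 2 and 0.526 to input 3. Without it, 13027 endothelial-only and 12355 input-only regions were called at P6.

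**Figure D1:**
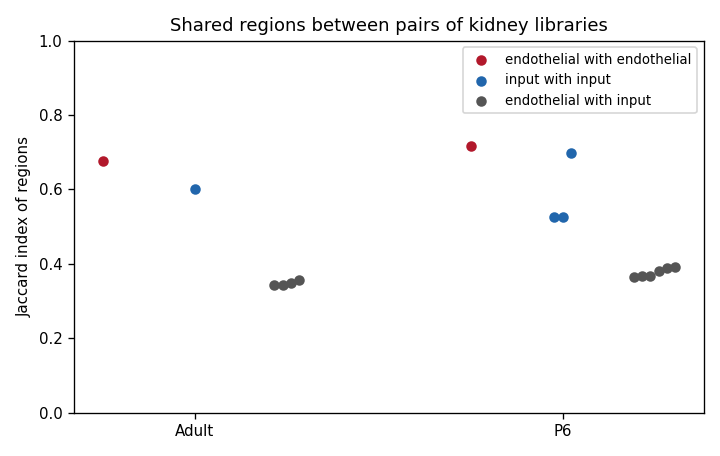
Jaccard index (vertical axis, no unit) of kidney regions for each pair of libraries, with adult pairs on the left and P6 pairs on the right. Each point is 1 pair, and the pairs across sides sit between 0.343 and 0.392, below every pair within a side.

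The regions that distinguish the sides lay away from gene starts. Of the 11179 adult regions with a peak in every library, 71.9% were within 1 kb of the start of a protein-coding gene, against 9.89% of endothelial-only and 8.66% of input-only regions. At P6 the shares were 55.3% of 18443 regions in every library, 3.60% of endothelial-only and 6.78% of input-only regions. Side-only regions were instead most often 5 to 50 kb away, and 80.7% of the adult and 75.9% of the P6 endothelial-only regions had a start within 100 kb, against 81.2% and 80.3% of the input-only regions and 84.2% and 83.1% of all regions. Counting given starts alone, 7.14% and 2.55% of the endothelial-only and 6.71% and 4.99% of the input-only regions were within 1 kb, against 20.7% and 14.2% of all regions. Among all top peaks, 32.5% and 31.7% were within 1 kb of a given start in the adult endothelial libraries and 31.1% in each adult input, and the P6 shares were 22.1% and 23.0% against 22.4%, 23.7% and 23.4%. The endothelial libraries lay above the inputs by 1.00 percentage points on average in adult, where the sides did not overlap, and stood at -0.566 points to them at P6, where they did. These differences were 1.57 points apart (exact permutation p = 0.0667). Their mean, 0.219 points, did not exceed the spread between libraries (two-sided exact permutation within ages, p = 0.633).

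**Figure D2:**
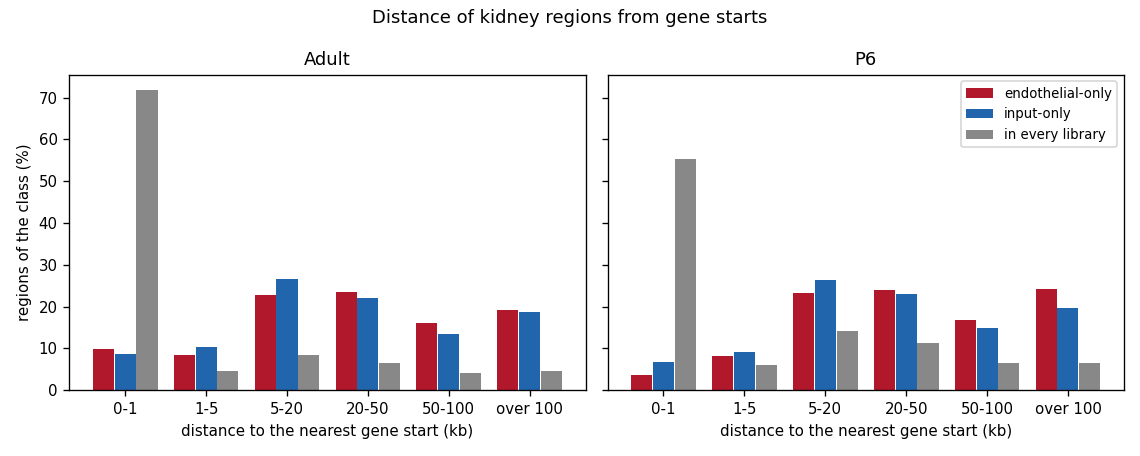
Share of regions (vertical axis, percent of the class) by distance to the nearest start of a protein-coding gene (horizontal axis, kb), for endothelial-only regions, input-only regions and regions with a peak in every library. Regions of every library pile up within 1 kb (71.9% in adult, 55.3% at P6). Those of 1 side spread from 5 kb to beyond 100 kb, with 18.8 to 24.1% of a class over 100 kb away.

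Known endothelial genes were surrounded by endothelial-only regions. Each region was assigned to the nearest gene start within 100 kb, which is a rule of position and not a shown link between region and gene. Of all protein-coding genes, 16.2% had an endothelial-only region in adult and 21.5% at P6, and 16.7% and 30.6% had an input-only region. Of the 30 general endothelial genes, all had an endothelial-only region in adult and 26 had one at P6, while 7 and 6 had an input-only region, the latter count falling to 3 and 2 without P6 input 2 or 3. Their median number of endothelial-only regions was 4 at each age, against 0 over all genes. Robo4, Sox7, Mmrn2 and Ecscr were the 4 without one at P6. No test was made of the lists, since they were chosen with earlier results of these data known.

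Kdr, the main signalling receptor for VEGF, had the most endothelial-only regions of the general list at P6. Peaks assigned to it numbered 12 and 13 in the adult endothelial libraries against 2 and 1 in the inputs, and 20 and 19 at P6 against 2, 1 and 3. Of these, 9 regions in adult and 13 at P6 were endothelial-only and none was input-only. The best ranked of them at P6, chr5:76016026-76016544, 37.6 kb from the start, scored 12.04, 15.6, 23.7 and 13.9 in the 4 endothelial libraries. It reached 3.08 in adult input 2 and 4.60 in P6 input 1, with no peak in the other 3 inputs, and it held no top peak in any P6 library of another organ.

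Pecam1, for the adhesion protein CD31 of endothelial junctions, had 5 and 7 adult endothelial peaks against 0 in both inputs, and 11 and 10 at P6 against 2, 2 and 3. Flt1 had 10 and 9 adult endothelial peaks against 0 in both inputs, and 12 in each P6 endothelial library against 3, 2 and 3. Emcn, for the surface mucin endomucin of capillaries and veins, had 5 and 5 against 0 and 0 in adult, and 8 and 8 against 2, 2 and 2. The sides did not overlap in any of these counts. Here and for other named genes, the counts use the same top peaks that gave the calls. They are therefore no separate support for the calls, and the share of all genes without such overlap was not counted. Cdh5, for VE-cadherin, had 10 and 6 adult endothelial peaks against 3 and 1, and 12 and 13 at P6 against 6, 6 and 5. Its best adult region, chr8:104095572-104096040, scored 14.5 and 18.8 in the endothelial libraries and 2.32 and 4.78 in the inputs. It was not endothelial-only at P6, where it scored 32.0 and 22.7 against 13.9, 4.54 and 2.44.

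In lists of particular vessel beds a smaller share of the genes had such a region. Of 11 glomerular endothelial genes, 7 in adult and 8 at P6 had an endothelial-only region, and 1 and 3 an input-only one. The endothelial-only shares were 63.6% and 72.7%, against 16.2% and 21.5% of all genes. The input-only shares were 9.09% and 27.3%, against 16.7% and 30.6%. The adult count of 1 was 2 or 3 without any single adult library. Ehd3, a membrane trafficking protein of glomerular capillaries, had 5 and 6 adult endothelial peaks against 1 and 1, and 5 and 5 at P6 against 2, 4 and 2. Its region at chr17:73826054-73826661 scored 6.07 and 11.0 in the adult and 18.9 and 11.96 in the P6 endothelial libraries. The inputs had a peak there of 2.61 in P6 input 1 and none in the other 4 libraries. Fabp1 and Tbx3 of this list had no side-only region at either age.

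Of 12 arterial genes, 9 in adult and 8 at P6 had an endothelial-only region, and 2 and 3 had an input-only one. The endothelial-only shares were 75.0% and 66.7%, against 16.2% and 21.5% of all genes. The input-only shares were 16.7% and 25.0%, against 16.7% and 30.6%. Sox17, a transcription factor of arterial endothelium, had 8 and 6 adult endothelial peaks against 1 and 0, and 8 and 9 at P6 against 3, 1 and 1. A region 2.33 kb from the nearer end of the gene, chr1:4493254-4493893, scored 7.56 and 11.8 in adult and 19.0 and 13.7 in P6 endothelial libraries, against 3.16 in adult input 2, and 2.32 and 2.47 in P6 inputs 1 and 2. Dll4, a Notch ligand of arteries and sprouting tips, had 4 endothelial-only regions at each age, and 1 input-only region in adult. Unc5b, a netrin receptor of vessels, had 5 at each age. Hey1 and Cxcr4 had none at either age.

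Of 12 genes of veins, capillaries and vasa recta, 7 in adult and 8 at P6 had an endothelial-only region, and 5 and 6 had an input-only one. The endothelial-only shares were 58.3% and 66.7%, against 16.2% and 21.5% of all genes. The input-only shares, 41.7% and 50.0%, also stood above those of all genes, 16.7% and 30.6%. Plvap encodes the protein of the diaphragms that span fenestrae. A region at an end of the gene, chr8:71511451-71512036, scored 9.18 and 12.9 in the adult and 21.2 and 9.95 in the P6 endothelial libraries, against 4.30 in adult input 2 and 6.08 in P6 input 1. Aplnr, the apelin receptor of veins, had 6 endothelial-only regions in adult and 4 at P6. Nr2f2 encodes COUP-TFII, a transcription factor of veins that stromal cells also make. It had no endothelial-only region at either age and 1 and 3 input-only regions. Igfbp5 and Car4 also had no endothelial-only region, and each had 1 input-only region in adult and 2 at P6.

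Among 12 transcription factors of kidney endothelium, 4 in adult and 6 at P6 had an input-only region. These are 33.3% and 50.0%, against 16.7% and 30.6% of all genes. An endothelial-only region was assigned to 8 of the 12 in adult and 9 at P6, or 66.7% and 75.0% against 16.2% and 21.5%. Gata2 had 5 and 3, Mecom had 6 and 5, Tcf4 had 5 and 8, and Nfatc1 had 3 and 7. Meox2, a homeobox factor of endothelium, had 3 and 3 adult endothelial peaks against none in the inputs, and 3 and 4 at P6 against 1, 0 and 2.

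**Figure D3:**
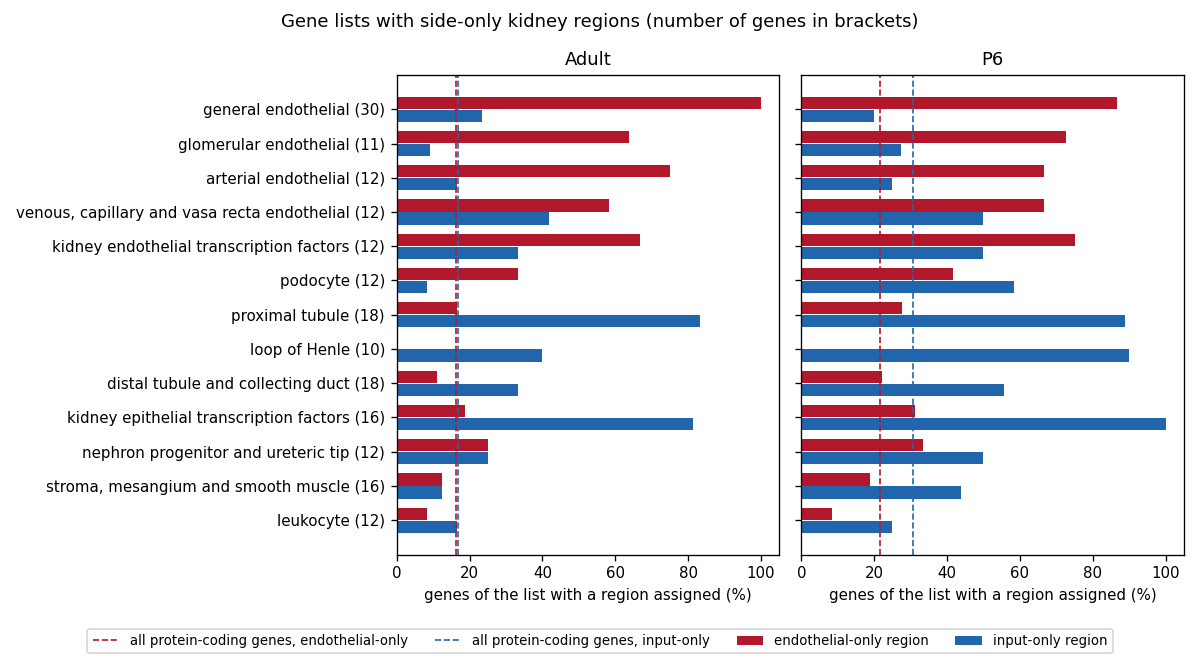
Share of the genes of each list (horizontal axis, percent) with at least 1 endothelial-only or input-only region assigned, in adult and at P6, with dashed lines at the share of all protein-coding genes. General endothelial genes reach 30 of 30 in adult and 26 of 30 at P6 for endothelial-only regions, and proximal tubule genes 15 and 16 of 18 for input-only regions.

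Tubular genes showed the opposite arrangement. Of 18 proximal tubule genes, 15 in adult and 16 at P6 had an input-only region, and 3 and 5 had an endothelial-only one. The input-only shares were 83.3% and 88.9%, against 16.7% and 30.6% of all genes. The endothelial-only shares were 16.7% and 27.8%, against 16.2% and 21.5% of all genes, and so not below them. Without P6 input 2 the P6 count of 16 was 10, and without adult endothelial library 1 the adult count of 3 was 5. Lrp2, for the uptake receptor megalin, had 1 and 0 adult endothelial peaks against 5 and 4 in the inputs, and 1 and 1 at P6 against 3, 8 and 7. One of its regions, chr2:69603468-69604157, 17.4 kb from the start, had no endothelial peak at either age, and scored 5.08 and 12.3 in the adult inputs and 7.02, 9.46 and 10.1 in the P6 inputs. Hnf4a had 0 and 1 adult endothelial peaks against 6 and 5, and 2 and 3 at P6 against 6, 7 and 6. Slc27a2, a fatty acid transporter and ligase of these cells, had none in the adult endothelial libraries against 4 and 6 in the inputs, and 2 and 2 at P6 against 5, 5 and 5.

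Of 10 loop of Henle genes, 4 in adult and 9 at P6 had an input-only region, and none had an endothelial-only region at either age. The input-only shares were 40.0% and 90.0%, against 16.7% and 30.6% of all genes. Without adult input 1 the adult count was 8, and without P6 input 2 or 3 the P6 count was 4. Without single libraries 0 to 1 of these genes in adult and 0 to 2 at P6 had an endothelial-only region. Cldn10, a claudin that lets sodium pass between cells of the thick ascending limb, had 4 input-only regions in adult and 7 at P6. Peaks assigned to it numbered 1 and 1 against 5 and 7 in adult, and 4 and 2 against 6, 10 and 10 at P6. Of 18 distal tubule and collecting duct genes, 6 and 10 had an input-only region, or 33.3% and 55.6% against 16.7% and 30.6% of all genes. An endothelial-only region was found for 2 and 4, or 11.1% and 22.2% against 16.2% and 21.5% of all genes. Without adult endothelial library 1 the count of 2 was 4. Tfcp2l1, a transcription factor of the collecting duct, had 4 at each age, with 2 peaks in each endothelial library of both ages against 7 and 7 in the adult and 5, 6 and 6 in the P6 inputs. Aqp2, the vasopressin-regulated water channel of principal cells, and the sodium channel subunits Scnn1b and Scnn1g had no side-only region.

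Transcription factors of kidney epithelium had an input-only region in 13 of 16 cases in adult and in all 16 at P6, against 3 and 5 with an endothelial-only one. These endothelial-only shares were 18.75% and 31.25%, against 16.2% and 21.5% of all genes. The input-only shares were 81.25% and 100%, against 16.7% and 30.6%. Without adult endothelial library 2 the count of 3 was 5. Emx1 had no adult endothelial peak against 7 and 8 in the inputs, and 2 and 2 at P6 against 4, 7 and 7. Pax2, a factor of all nephron epithelium, had no adult endothelial peak against 4 and 4, and 2 and 1 at P6 against 6, 7 and 6. Pax8 had 3 and 4 against 5 and 8 in adult, and 2 and 6 against 7, 10 and 8 at P6. Grhl2, a factor of epithelial junction genes in distal segments, had 2 input-only regions in adult and 7 at P6, and Esrrg, a nuclear receptor of mitochondrial genes, had 1 and 7.

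Genes of other cell types that whole kidney holds were counted in the same way, against the shares of all genes given above, 16.2% and 21.5% for endothelial-only and 16.7% and 30.6% for input-only regions. Of 12 podocyte genes, 1 in adult and 7 at P6 had an input-only region, while 4 and 5 had an endothelial-only one, or 33.3% and 41.7%. The input-only shares were 8.33% and 58.3%, the latter close to the 55.6% of the distal tubule and collecting duct list, and the adult count of 1 was 2 without adult endothelial library 2 or either adult input. Podxl and Synpo carried most of the endothelial-only regions, with 10 each in adult, and 10 and 6 at P6. Podxl encodes podocalyxin, a surface sialomucin that podocytes and endothelial cells both make, and had 10 and 14 adult endothelial peaks against 0 and 0, and 14 and 16 at P6 against 5, 5 and 6. The podocyte genes Nphs1 and Wt1 had no endothelial-only region at either age. Of 16 genes of stroma, mesangium and smooth muscle, 2 in adult and 7 at P6 had an input-only region and 2 and 3 an endothelial-only one. The input-only shares were 12.5% and 43.8%, and 4 of the 16 had one in adult without either input and at P6 without input 2 or 3. Without adult endothelial library 2, 4 of the 16 had an endothelial-only region in adult. Of 12 leukocyte genes, 2 and 3 had an input-only region and 1 had an endothelial-only one at each age, and without P6 input 3 the count of 3 was 1. The endothelial-only count of 1 was 2 without adult endothelial library 1 or adult input 1, and at P6 without input 1 or 3. The shares of leukocyte genes, 16.7% and 25.0% for input-only and 8.33% for endothelial-only regions, did not stand above those of all genes. Summed over each list, peaks near podocyte genes numbered 32 and 38 in adult endothelial libraries against 13 and 12 in inputs, those near stromal genes 8 and 7 against 8 and 10, and those near leukocyte genes 3 and 4 against 5 and 5. At P6 the podocyte list drew 42 and 51 against 35, 34 and 40, the stromal list 24 and 22 against 27, 31 and 43, and the leukocyte list 9 and 9 against 15, 10 and 8. The adult podocyte sums include the 10 and 14 peaks at Podxl, against none in the inputs, and 12 and 15 at Synpo, against 1 and 2. Fewer nuclei of a type and less accessible chromatin per nucleus cannot be told apart in such bulk libraries.

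**Figure D4:**
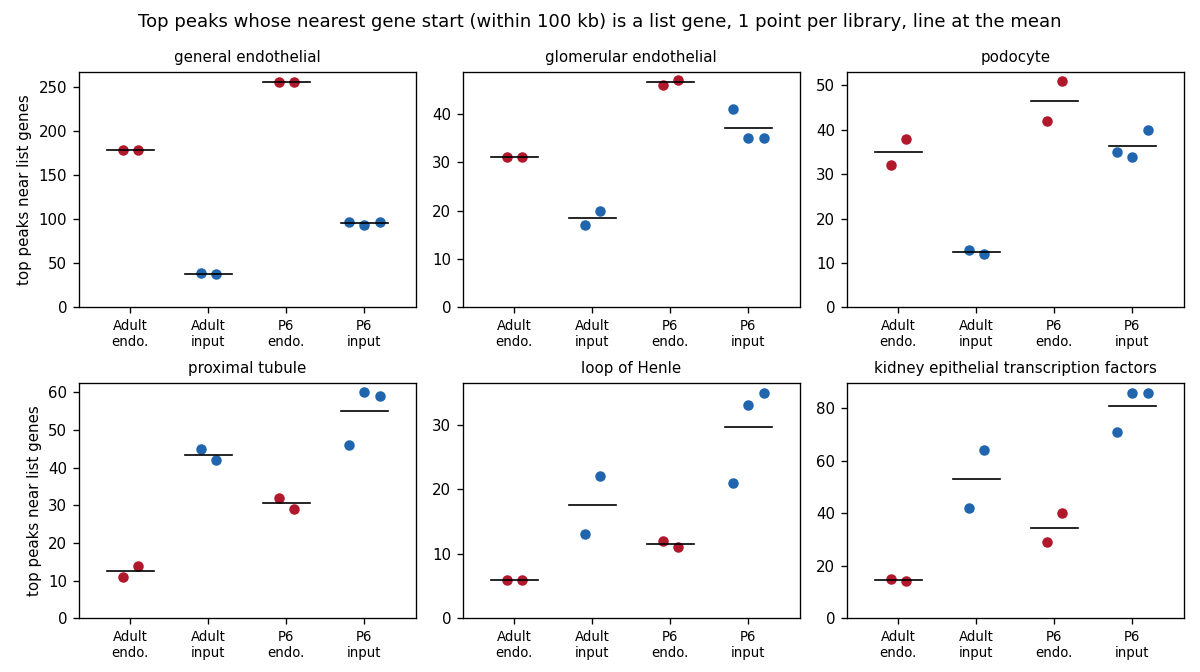
Number of top peaks (vertical axis) whose nearest gene start within 100 kb belongs to a list, in each of the 9 libraries, with a line at the group mean. General endothelial genes drew 179 peaks in each adult endothelial library against 39 and 38 in the inputs, and proximal tubule genes 11 and 14 against 45 and 42.

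Among the 12 genes of nephron progenitors and ureteric tips, 3 in adult and 4 at P6 had an endothelial-only region, or 25.0% and 33.3% against 16.2% and 21.5% of all genes, and without adult input 2 the count of 3 was 5. Meox1, a homeobox gene, had 5 in adult and 3 at P6. Etv4, an ETS factor, had 2 and 3, and since both genes are neighbours on chromosome 11 their regions belong to 1 stretch. Cited1 of this list had 1 endothelial-only and no input-only region at each age, the adult one 87.1 kb from its start. Wnt11 had 4 endothelial-only and 4 input-only regions at P6, and only 1 input-only region in adult. Six2, the defining factor of nephron progenitors, had no side-only region at either age. It had 0 regions of any class in adult and 2 at P6. Input-only regions were assigned to 3 of these genes in adult and 6 at P6, or 25.0% and 50.0% against 16.7% and 30.6% of all genes. Without adult input 1 the adult count was 5, and without P6 input 2 or 3 the P6 count was 2.

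The genes with the most side-only regions were mostly outside the lists. In adult endothelium these were Elk3, an ETS factor of vessels, with 13 regions, Cemip2, a hyaluronan-binding membrane protein, with 11, and Synpo, Adgrf5 and Podxl with 10 each. Adgrf5, an adhesion receptor, had 11 endothelial-only regions at P6 as well, as did Cemip2. At P6 Frmd4a had 14, Kdr 13, and Prkch, a protein kinase C, and Rgs3, a regulator of G protein signalling, 12 each. On the input side 3110040M04Rik had the most in adult, 12, and it had 8 at P6. Itpr1, an intracellular calcium channel, had 9 in adult and 12 at P6, and Arhgap32 had 10 and 12. Slc4a4, the bicarbonate exporter of the proximal tubule, and Lpar3 had 8 each in adult, and Rbm47, an RNA-binding protein of epithelia, and Trabd2b had 13 each at P6, followed by Depdc1b with 11. A long span around a gene holds more regions, and counts were not scaled by it: Itpr1 had 23 regions of any class in adult, of which 2 were endothelial-only.

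Single regions were ranked by the mean rank of their peaks in the libraries of their side. In adult endothelium a region near Gng11, a G protein subunit, chr6:4009541-4009979, 1.10 kb from the nearer end of the gene, scored 19.3 and 30.2, against no peak and 3.18 in the inputs. At P6 it scored 38.3 and 20.4 against 8.33, 2.43 and 3.28, and was not endothelial-only. A region within Enpep, which encodes the angiotensin-cleaving aminopeptidase A, chr3:129295804-129296314, scored 18.1 and 26.9 against no peak and 4.21, and at P6 27.7 and 11.96 against 3.47 in input 1 alone. It held no top peak in any library of another organ. The best of all adult input-only regions, chr6:13763630-13764160, lay 75.8 kb from Gpr85 and scored 26.8 and 42.6 in the inputs, against no peak and 2.49, and 8.24, 11.3 and 13.5 in the P6 inputs against no peak. A region in Slc13a4, a sulfate transporter gene, chr6:35303283-35303783, scored 16.1 and 32.1 in adult and 27.8, 23.4 and 22.6 in P6 inputs, against 2.48 in adult endothelial library 2 and 3.71 in P6 endothelial library 1, and it was the best ranked input-only region at P6. A region in Casr, for the calcium-sensing receptor of the thick ascending limb, chr16:36545336-36545762, scored 27.5, 16.9 and 19.2 in the P6 inputs against 3.46 and no peak in the endothelial libraries. In adult it scored 6.14 and 17.7 in the inputs, with no endothelial peak.

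Many calls were shared by the ages. Of the adult endothelial-only regions, 3384 (44.7%) overlapped an endothelial-only region at P6, which is 28.9% of the P6 set counted from its side, and 3848 adult input-only regions (57.7%) overlapped 26.3% of the P6 set. These numbers depend on the lists: the 3384 regions became 1039 with all deposited peaks and 822 with absence judged in full lists, and without single libraries they ranged from 3426 to 4772 and the 3848 input-only ones from 2439 to 5874, with the ends of the latter range reached without P6 input 2 (2443) or 3 (2439) and without adult input 1 (5874). Of the P6 input-only regions, 18.5% of those with a peak in 2 inputs and 36.0% of those with a peak in all 3 overlapped an adult one. The opposite call at P6 was made for 17 adult endothelial-only regions and 1 input-only region. The names of the read files end differently for the ages, per the file headers, with the same peak calling settings, and whether their processing differed is not given in the sources used here. With 26085 peaks taken from every one of the 9 libraries, adult endothelial-only regions held a peak in 77.0% and 74.0% of cases in the P6 endothelial libraries, against 14.9%, 13.6% and 12.8% in the P6 inputs. P6 endothelial-only regions held one in 61.9% and 68.6% of cases in the adult endothelial libraries, against 3.98% and 3.12% in the adult inputs. Adult input-only regions did so in 2.33% and 2.97% of cases in the P6 endothelial libraries, against 34.1%, 54.4% and 56.5% in the inputs, the lowest being input 1. P6 input-only regions did so in 13.7% and 12.6% of cases in the adult endothelial libraries, against 54.9% and 64.4% in the adult inputs. Libraries of one age were not used to call regions at the other, and in each of these 4 sets the sides did not overlap. This use of 1 number for both ages was chosen after seeing the data. With each age's own list length, adult endothelial-only regions held a peak in 93.7% and 92.0% of cases in P6 endothelial libraries. The P6 inputs held 31.6%, 33.0% and 32.7%. P6 endothelial-only regions held one in 36.4% and 42.0% of cases in adult endothelial libraries, against 1.07% and 0.771% in inputs. For input-only regions the endothelial shares were 10.6% and 12.3% at P6 and 4.25% and 3.36% in adult. Input shares were 55.6%, 75.5% and 76.0%, and 36.6% and 44.8%.

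By gene, 2503 genes had an endothelial-only region at both ages, which is 70.7% of the adult and 53.2% of the P6 genes with one and 11.4% of all genes. An input-only region at both ages was found for 2944 genes, or 13.5% of all. Of the general endothelial list 26 genes had an endothelial-only region at both ages, and 19 of these had no input-only region at either age. Of the proximal tubule list 14 had an input-only region at both ages, and 9 of these had no endothelial-only region at either.

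Libraries of other organs gave a check that did not enter the calls. Brain, heart, liver, lung and retina contributed 18 adult and 25 P6 libraries, with 1 to 3 of a side in each organ and age, each reduced to its 19464 (adult) or 27160 (P6) best peaks. Adult kidney endothelial-only regions held a peak in 33.3% ± 15.7 of cases in endothelial libraries of those organs (SD, n = 10) and in 10.0% ± 5.91 in their inputs (n = 8). At P6 the shares were 28.5% ± 13.7 (n = 12) and 5.56% ± 4.47 (n = 13). The difference averaged over organs was 22.8 percentage points in adult (two-sided exact permutation within organs, p = 0.000514, adjusted over 4 tests by Benjamini-Hochberg to 0.000686) and 25.7 at P6 (exact p = 6.94e-06, adjusted 2.78e-05). In all 5 organs at both ages every endothelial library lay above every input library. The sides came closest in adult retina, where endothelial library 2 held 6.98% against 5.93% and 6.38% in the inputs.

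The organs were far from equal. Heart endothelium held 49.9% and 49.9% of the adult kidney endothelial-only regions, liver endothelium 43.7% and 43.2%, and lung endothelium 40.8% and 41.4%. Brain endothelium held 20.7% and 23.0% and retina endothelium 13.7% and 6.98%. At P6 heart, liver and lung endothelium again held 34.5 to 44.4%, and brain and retina 11.2 to 23.2%.

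Kidney input-only regions were rarer elsewhere. They held a peak in 2.29% ± 1.71 of cases in adult endothelial libraries of other organs (n = 10) against 9.85% ± 9.14 in inputs (n = 8), a mean difference of -6.63 percentage points (exact permutation p = 0.00309, also 0.00309 after adjustment). At P6 the shares were 3.53% ± 1.95 (n = 12) against 9.66% ± 4.16 (n = 13), a mean difference of -7.01 (exact permutation p = 9.03e-05, adjusted 0.000181). The endothelial libraries lay below all inputs in 3 of 5 organs in adult and in 4 of 5 at P6. Liver input stood out with 24.1% and 25.0% in adult and 18.3% and 18.5% at P6, while the other inputs held 3.47 to 6.32% in adult and 4.75 to 10.1% at P6. Hnf4a, from the proximal tubule list, is also a textbook factor of hepatocytes, and any relation of it to the liver shares was not tested.

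**Figure D5:**
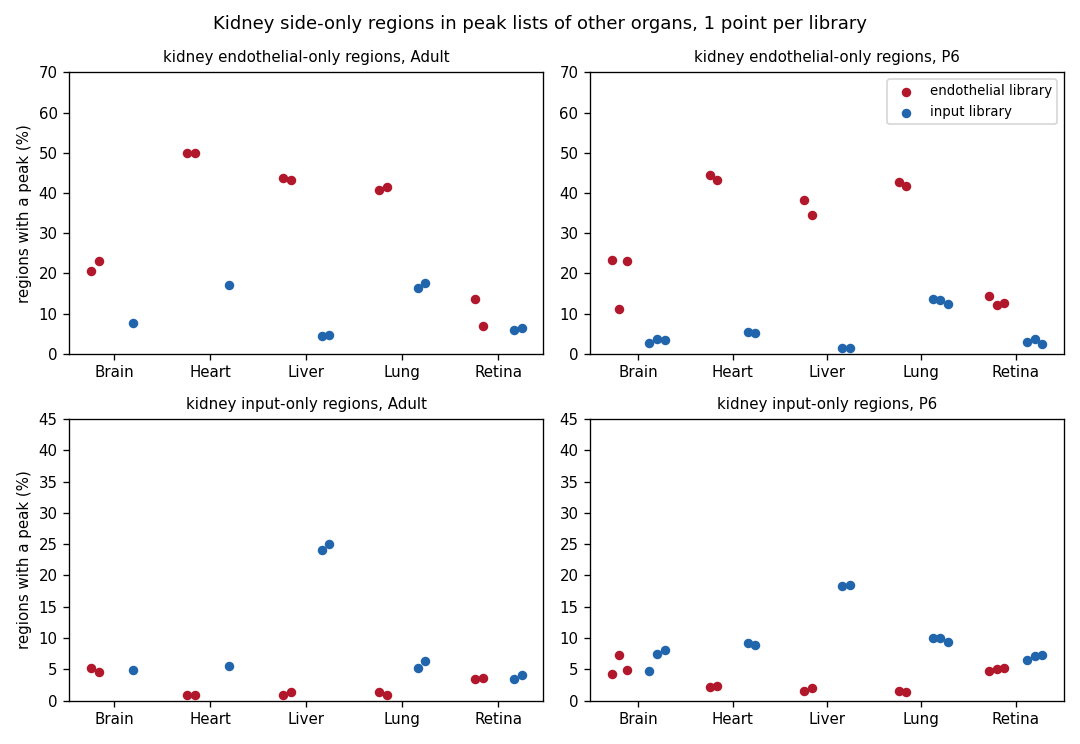
Share of kidney endothelial-only (top) and input-only (bottom) regions with a top peak in each library of other organs (vertical axis, percent, 1 point per library), in adult (left) and at P6 (right). Endothelial libraries lie above inputs in all 5 organs in the top panels, and liver inputs reach 18.3 to 25.0% in the bottom panels.

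Regions were also counted by organ, in libraries of the same age only. Of adult kidney endothelial-only regions, 5.97% held a peak in endothelium of all 5 other organs. In adult 19.1% held one in that of none, and 17.5% in no adult library of another organ. At P6 the shares were 6.99%, 25.1% and 22.5%. Of the input-only regions, 58.4% in adult and 52.3% at P6 held no peak in any same-age library of another organ. Absence here is again absence among the top peaks of those libraries.

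The promoter windows differed in their letters. RefSeq windows of 300 bases, 250 before and 50 after a start, were searched on both strands. Endothelial-only regions overlapped 466 windows in adult and 190 at P6, and input-only regions 352 and 578. GGAAGT, an ETS motif, was in 31.5% and 32.6% of the endothelial-only windows and in 19.9% and 19.6% of the input-only ones, against 24.8% of all 21238 windows. GTTAAT, one arm of the palindromic HNF1 site, was in 15.9% and 13.3% of the input-only windows and in 4.08% and 5.26% of the endothelial-only ones, against 6.25% of all. CAAAGTCC, an HNF4 motif, was in 5.40% and 4.33% of the input-only windows against 1.44% of all. In the 52 windows that endothelial-only regions overlapped at both ages, GGAAGT was in 26.9%, close to the share of all windows. The SOX motif ACAATG was in 9.01% and 9.47% of the endothelial-only windows against 11.0% of all, and the GATA motif AGATAA in 8.15% and 6.84% against 9.65%. In the 52 windows of both ages they stood on the other side of the share of all windows, with 13.5% for SOX and 17.3% for GATA. The AP-1 motif TGANTCA was in 9.01% and 10.0% of the endothelial-only windows and in 15.4% of the 52, against 6.99% of all. On the input-only side it was in 6.53% and 8.997%, and in 10.9% of the 156 windows of both ages. These are shares of windows, with no test, and windows of neighbouring starts can share bases.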

How the data were processed

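The 9 kidney ATAC-seq libraries and the 43 of other organs are given as 1 peak list each. Per the file headers, the authors called broad peaks with MACS2 2.1.2 in each library separately, without a control, with tags shifted by -100 bp and extended to 200 bp, 1 tag per position, and q-values of 0.05 (strong) and 0.1 (broad). Each deposited peak carries a −log10 q-value and a fold, the ratio of its pileup over the local background of its own library, per the file headers. The submitters' processing notes name mm10, Bowtie2, SAMtools 1.13, Picard, MACS2, DiffBind 3.2, R 4.1 and DESeq2 1.32.0, with no order or role.

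From these lists the 26085 (adult) or 43882 (P6) peaks of highest −log10 q-value were kept per library, and peaks overlapping by at least 1 bp were merged into regions. Groups came from the sample titles. Gene starts came from the RefSeq promoter table for 17492 protein-coding genes. For the other 4395, among them Pecam1 and Cdh5, no strand was at hand, and either end of the gene counted as a start, except in the promoter share of top peaks. To check the build, gene ends with a peak no farther than 500 bp away were counted: 44.7 to 64.7% of genes over the kidney libraries, and 4.89 to 19.0% with gene positions displaced by 100 kb. No exon annotation was used.

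Single regions have no test, since 2 libraries against 2, or 2 against 3, cannot give an exact two-sided p below 0.333 or 0.2. Summary values were tested by exact permutation within ages or organs (Python 3.11.15, numpy 2.4.6), and the code was tested on simulated lists. The number of deposited peaks did not follow the kept tags: P6 input 1 had the fewest tags (24.1 M) and the most peaks (115914), and adult input 1 the most tags (40.5 M) and 31045 peaks. Alternatives were other cuts and rankings of the lists, a stricter overlap, other distances to genes, and leaving out each library. Members and gene lists (13 lists, 191 entries) were chosen with earlier results of these data known. The naming rule covered the 10 best ranked side-only regions of each side and age, and of those called at both ages, the 5 genes with most regions of each side and age, and genes of the lists. Of the regions and list genes it covered, the text gives a selection, made after their values were seen. The 8 kidney RNA-seq libraries were not used here, since no table at hand pairs their transcripts with genes.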

Additional observations from a re-analysis of the deposited data

How the results depend on the processing

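The Jaccard difference and the 4 comparisons with other organs kept their direction under every alternative run. The comparisons with other organs kept an exact permutation p of at most 0.0139. Leaving out 1 library at a time gave differences of 17.5 to 25.0 points (adult) and 21.2 to 26.5 (P6) for endothelial-only regions, and of -8.26 to -4.74 and -9.85 to -6.57 for input-only regions. The Jaccard difference ranged from 0.244 to 0.310, with exact permutation p from 0.0333 to 0.111, since without a P6 library fewer splits exist.

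Counts moved with the list length. With all deposited peaks, 4441 adult and 5852 P6 regions were endothelial-only and 10681 adult regions input-only, and 1039 adult endothelial-only regions were so at P6. With every peak of a −log10 q-value of at least 5, endothelial-only regions numbered 2525 and 4358, and 1000 endothelial-only and 2543 input-only adult regions were shared with P6. With absence judged in full lists 3538 and 4869 were endothelial-only, 822 of the adult ones at both ages. With 26085 peaks in every library, P6 had 7415 endothelial-only and 9020 input-only regions. Leaving out libraries gave 8626 to 11279 endothelial-only and 7482 to 11555 input-only regions in adult, 12484 to 16486 and 7611 to 17250 at P6, and 3426 to 4772 and 2439 to 5874 shared by the ages. A side left with 1 library needed a peak in that 1 only, so these ranges do not follow the main rule. With genes of a given start alone (added after seeing the data), general endothelial genes with an endothelial-only region numbered 15 of 15 in adult and 14 of 15 at P6. In this variant 1 of 8 loop of Henle genes had one at each age, as had 4 and 6 of 15 proximal tubule genes. The shares over all genes with a given start were 17.4% and 22.9%. Proximal tubule genes with an input-only region numbered 10 to 16 at P6 and 15 to 17 in adult without single libraries, and general endothelial genes with an endothelial-only region 30 in adult and 26 to 28 at P6. Of the counts for the other lists, 96 moved by more than 1.5 times under an alternative cut or distance and 336 did not, while without single libraries 36 moved and 180 did not.

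The promoter share has no stable sign: it was -0.269 points with 1 number of peaks for both ages (exact permutation p = 0.733) and -0.00522 to 0.444 without single libraries. Whether replicate numbers pair the libraries cannot be decided from these values. Deviations of same-numbered libraries correlated at 0.0852 in adult and 0.0143 and 0.0163 at P6. Those of differently numbered libraries correlated at -0.0852 in adult and between -0.0163 and 0.00405 at P6. Deviations of 2 libraries on a side mirror each other, so the adult values are 1 value with either sign. With the replicate block the promoter difference was 0.268 points (exact sign-flip permutation p = 0.75), on the same side of the threshold. Peaks weaker than the shortest list's last peak could not be compared.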

Other observations

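Some genes held regions of both sides. In adult 1041 genes had an endothelial-only and an input-only region, which is 29.4% of the genes with the former and 28.5% of those with the latter. At P6 there were 2416, or 51.3% and 36.1%. Aqp1 encodes a water channel that proximal tubule cells and the endothelium of descending vasa recta both make. It had 4 input-only and 1 endothelial-only region in adult, and 4 and 3 at P6. Jag1, a Notch ligand of arteries and of nephron segments, had 2 of each in adult, and 2 endothelial-only and 4 input-only at P6. Irx3, a homeobox factor of the nephron, had 2 of each at both ages. Ets1, an ETS factor, had 5 endothelial-only and 3 input-only regions in adult and 10 and 2 at P6. Atp6v1g3, a proton pump subunit of intercalated cells, had 3 endothelial-only and 2 input-only regions in adult, and 4 and 0 at P6, its endothelial-only regions lying 28.9 to 74.7 kb from its start. These genes were chosen after their values were seen.

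Endothelial-only regions called at both ages that held no top peak in any same-age library of another organ numbered 780 counted in adult and 460 counted at P6. Libraries of the other age did not enter these counts. A region near Cldn5, chr16:18727946-18728237, had no such peak in adult, but its P6 counterpart had one in the endothelium of 2 other organs. Besides the one in Enpep, the best ranked of the 780 in adult included one 42.1 kb from the nearer end of Tcim (chr8:24481074-24481650) and one 70.5 kb from Hs3st1, a heparan sulfate sulfotransferase gene (chr5:39715081-39715661). Endothelial-only regions with a peak in the same-age endothelium of all 5 other organs numbered 452 in adult and 816 at P6, of which 85 and 489 were called at both ages. Among the 85 with no top peak in any adult input of another organ, the best ranked included a region over an end of Ang2, an angiogenin-family ribonuclease (chr14:51195736-51196140), and one 12.4 kb from the nearer end of Prkch (chr12:73790628-73791172).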
